A study of Mus musculus with 4 samples.

Results

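The genes that copy DNA in S phase and supply its building blocks were followed in a mouse T-cell leukaemia line in which the transcription factor Ikaros was switched on. The set had 46 members, taken by name from a list of replication and deoxynucleotide synthesis genes. All 46 were measured, among 19938 genes named on the array. Where a gene had more than 1 probe set with exactly 1 symbol, the probe set with the highest mean was used, which applied to 3 members. ILC87-Ik1-ER cells were studied. ILC87 is a line from a thymic tumour of an Ikaros f/f Lck-cre+ mouse, whose Ikaros gene is deleted in T-lineage cells by a Cre recombinase under the Lck promoter. The samples are labelled C57BL/6, while the study's methods give mice of this genotype a mixed background of C57BL/6 and a second strain. The cells carried the MigR1:Ik1-ER retrovirus, in which the full-length Ikaros-1 protein is fused to the hormone-binding part of the oestrogen receptor and GFP is made from the same transcript, and GFP-positive cells had been sorted. They received 100 nM 4-hydroxytamoxifen (4OHT), a ligand that activates such fusion proteins, or its vehicle ethanol (EtOH), for 24 h, with 2 arrays per treatment. All 4 arrays came from cells with Ik1-ER, so an effect of 4OHT itself cannot be told apart from one of Ikaros. Nothing in the labels ties the 2 arrays of a treatment to separate cultures. The p-values therefore rest on a spread between samples that may be technical.

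Replication starts at origins that are licensed in G1, when the origin recognition complex, Cdc6 and Cdt1 load the Mcm2-7 helicase. In S phase the helicase is activated by Cdc45 and the GINS complex, primase and the DNA polymerases copy the strands, and the Pcna clamp, its loader and RPA hold the fork together. Ribonucleotide reductase, thymidylate synthase, thymidine kinase and dUTPase supply deoxynucleotides. Many of these genes are classical targets of E2F factors, which cyclin E-Cdk2 releases from the retinoblastoma family of pocket proteins at the G1/S boundary.

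The values are log2 intensities normalised with RMA, and each difference is 4OHT minus EtOH on the log2 scale. The array medians lay between 7.11 and 7.16. The arrays correlated over all 35556 probe sets with r = 0.996 between the EtOH arrays, 0.994 between the 4OHT arrays and 0.989 to 0.990 between treatments. Of the listed T-cell markers, 9 of 10 were measured, with means of 10.0 to 13.1 in log2. Markers of B cells, myeloid cells and erythroid cells had means of at most 6.75, 6.93 and 7.07, below every array median, and NK-cell markers of at most 7.30. Among these lists *Cd3d*, a T-cell receptor component, was lower with 4OHT (-0.94, adjusted p = 0.0172 by limma), the myeloid gene *Lyz2* was lower (-1.24) and the myeloid integrin gene *Itgam* higher (0.68). Of the 8 myeloid markers, 6 differed upwards and 2 downwards, with a median difference of 0.078. The median of their values was 6.60 and 6.45 on the EtOH arrays and 6.25 and 6.34 on the 4OHT arrays. The part of these markers in the results below was not tested. In these bulk samples, a change in the share of cells in S phase and a change in mRNA per cell cannot be told apart.

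E2F factors recognise short GC-rich sequences near the transcription start of many replication genes, so the promoters were read first. RefSeq windows from 250 bases before to 50 bases after each start (build GRCm38.p6) were at hand for 38 of the 46 members, 45 windows in all. Motif TTCCCGC, its variant with the letters TTGGCGC, the variant with TTCGCGC or the variant with TTGCCGC, on either strand with overlapping matches merged, occurred in 25 of the 45 windows (55.6%), against 9.57% of 32851 windows of the same length. The members' windows were richer in GC (median 57.7%) than all windows (52.7%). Among the 11677 windows at or above the members' median, 19% held one. CCAAT, the letters that NF-Y recognises, was in 57.8% of the member windows and 37.4% of all. AGGAA, the core letters of Ikaros-bound sites, was in 51.1% and 66.7%. By role, the E2F-type letters occurred in windows of 7 of 10 licensing genes, 5 of 7 polymerase and primase genes, 5 of 8 clamp, loader and RPA genes, 2 of 5 deoxynucleotide genes and 1 of 3 G1/S regulators. Both Okazaki genes had them, and 1 of 3 helicase activation genes. *Pole*, *Prim2*, *Ccne2*, *Gins2*, *Gins1*, *Gins4*, *Rfc2* and *Mcm4* had no window. The following stretches, with the E2F-type letters in capitals, come from members described singly below and are shown as examples of the 23 genes that hold them.
E2f2, chr4:136172304-136172323, plus strand: ggcatatagtTTGGCGCtaa
Cdc6, chr11:98908003-98908029, plus strand: ccggtggagaGCGGGAAatcgcctggg
Mcm5, chr8:75109347-75109376, plus strand: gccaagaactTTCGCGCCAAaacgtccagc
Gins3, chr8:95633508-95633534, plus strand: cgagtgcggcGCGGGAAagcgagtttg
Rfc3, chr5:151651201-151651227, minus strand: gtcgcacgctTTCGCGCtcGCGGGAAa
Fen1, chr19:10203939-10203965, minus strand: caggaggctgTTCGCGCctggcagatc

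*E2f2* was the member with the largest change, and the bases before its first start are therefore shown. The 250 bases before its first RefSeq start, chr4:136172024-136172273 on the plus strand, hold 1 AGGAA and 1 CCAAT, given in capitals. The E2F-type letters printed above lie past this start, at positions 41 to 47. The 250 bases before a second start, chr4:136180532-136180781, hold 1 AGGAA and 3 CCAAT and are not shown. A match of letters is a description and not a binding site.
E2f2 upstream: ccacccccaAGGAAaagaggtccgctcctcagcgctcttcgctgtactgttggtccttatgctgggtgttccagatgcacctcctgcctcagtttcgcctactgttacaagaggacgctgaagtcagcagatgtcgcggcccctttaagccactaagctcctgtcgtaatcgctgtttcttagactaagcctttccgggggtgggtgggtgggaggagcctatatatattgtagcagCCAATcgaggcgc

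Of the 46 members, *E2f2* rose with 4OHT and none fell by limma with Benjamini-Hochberg adjustment over all probe sets at adjusted p under 0.05. Of all genes, 1.23% were called higher and 2.99% lower, so that 1 of 46 is near the background. The members were bright probe sets, all above every array median, and among the 5642 genes at least as bright as the dimmest member, 5.96% were called in either direction. The other 45 members had differences between -0.33 and 0.49. Their 95% intervals, which are not adjusted for the number of genes, reached from -0.72 to 0.76. The smallest change called among all genes was 1.38-fold. The members' standard errors lay between 0.069 and 0.149.

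Small shifts upwards outnumbered those downwards. The median difference of the members was 0.09 against 0.031 for all genes and -0.044 for the genes at least as bright as the dimmest member, and the median absolute difference was 0.116 against 0.113 for all genes. Both 4OHT arrays lay above both EtOH arrays for 22 of 46 members and below them for 8, while the arrays of 16 overlapped. Over all genes this held for 32.1% above and 24.5% below, and among the 5642 bright genes for 1348 above and 2191 below. At an unadjusted p under 0.05 by limma stood 9 members, 6 higher and 3 lower, a share near the 20.4% of all genes. Among the 5642 bright genes, 1600 stood there, 568 higher and 1032 lower. Without 4OHT replicate 2 the members' median was 0.039 and without EtOH replicate 2 it was 0.048. The side was uneven between arrays: 34 of 46 members lay above their own mean on 4OHT replicate 2 and 25 on 4OHT replicate 1. The members' median deviation was 0.075 and 0.005 on these arrays and -0.013 and -0.050 on EtOH replicates 1 and 2.

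**Figure D1:**
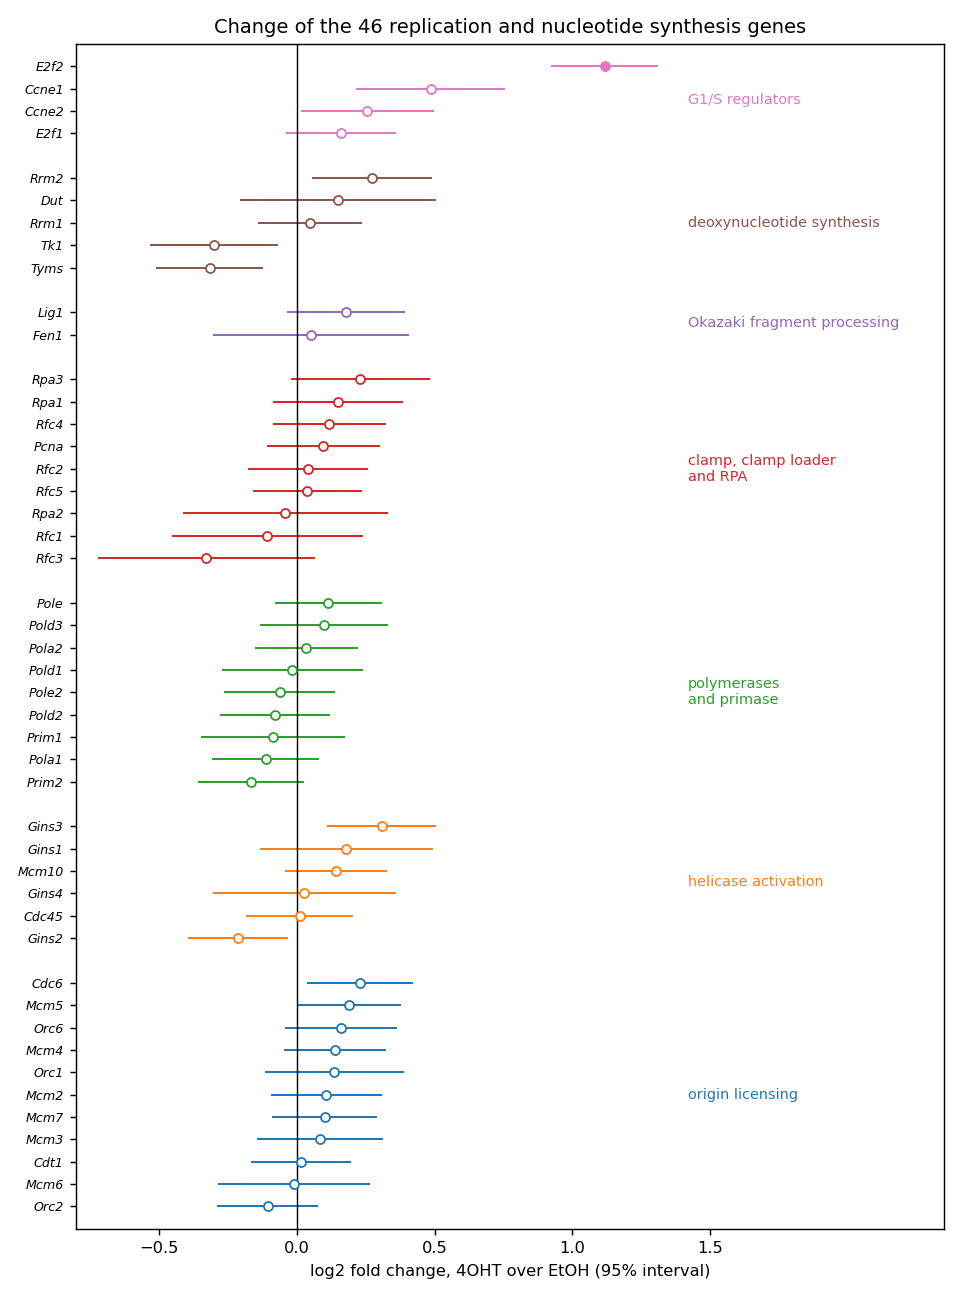
Difference of each of the 46 members on the log2 scale, 4OHT over EtOH, with its 95% interval from the moderated fit, grouped by role. The filled point is the member past the test, *E2f2* at 1.12, and open points are the other 45, between -0.33 and 0.49.

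The 2 treatments lay farthest apart among the G1/S regulators, which drive entry into S phase. *E2f2*, an activating E2F factor, read 9.81 and 9.83 with EtOH and 10.90 and 10.98 with 4OHT. The 2 pairs were far from overlapping, and each was tight. The difference was 1.12 (SE 0.074, 95% interval 0.92 to 1.31), 2.17-fold, with adjusted p = 0.0107 by limma, and it ranked 58th among the increases of 19938 genes. The call was lost without EtOH replicate 1, EtOH replicate 2 or 4OHT replicate 2, which left 1 array in that treatment. It was also lost with the replicate number as a block (adjusted p = 0.0592 by limma), where 0.15% of all genes were called. The difference stayed between 1.08 and 1.17 over the alternatives.

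*Ccne1*, which encodes cyclin E1, read 10.07 and 9.93 with EtOH and 10.39 and 10.58 with 4OHT. All 4OHT values were above all EtOH values. The difference of 0.49 (SE 0.103, 1.40-fold) did not pass the test (adjusted p = 0.0982 by limma). *E2f1* and *Ccne2* were also above on both arrays, by 0.16 and 0.26, without passing. The 4 regulators thus lay above on both 4OHT arrays, as 32.1% of all genes did, and their median was 0.37. Their promoters did not share the E2F-type letters in the window, since 1 of the 3 genes with a window held them.

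Among the 11 origin licensing genes, 7 lay above on both 4OHT arrays, 1 below and 3 overlapped, with a median difference of 0.11. Of all genes, 32.1% lay above and 24.5% below. None passed the test. *Cdc6*, which loads the helicase with Cdt1, read 9.93 and 9.93 with EtOH and 10.12 and 10.20 with 4OHT, a difference of 0.23 (SE 0.073, adjusted p = 0.209 by limma). *Mcm5*, a helicase subunit, read 11.74 and 11.80 with EtOH and 11.96 and 11.95 with 4OHT, a difference of 0.19 (SE 0.072). Neither gene's arrays overlapped. *Orc1*, the large subunit of the origin recognition complex, was the dimmest member and read 9.13 and 8.96 with EtOH and 9.13 and 9.23 with 4OHT. Its arrays overlapped, and its difference of 0.14 (SE 0.096) was 0.23 without EtOH replicate 1, 0.048 without EtOH replicate 2 and 0.087 without 4OHT replicate 2. The remaining 8 differed by -0.10 to 0.16, with *Orc2* the 1 gene below on both arrays.

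The 6 helicase activation genes split. Of the GINS subunits, which bind the helicase together, *Gins3* read 9.67 and 9.70 with EtOH and 9.95 and 10.04 with 4OHT, a difference of 0.31 (SE 0.075, adjusted p = 0.126 by limma). *Gins2* went the other way, from 10.28 and 10.29 to 10.06 and 10.07, a difference of -0.21 (SE 0.069, adjusted p = 0.212 by limma). Subunits of 1 complex therefore lay on opposite sides, without either passing the test. *Gins1*, *Gins4*, *Mcm10* and *Cdc45* differed by 0.0098 to 0.18, and the arrays of 3 of these 4 overlapped.

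The 9 polymerase and primase genes were the group with a negative median, -0.062. *Prim2*, the large primase subunit, read 11.40 and 11.47 with EtOH and 11.28 and 11.26 with 4OHT, a difference of -0.17 (SE 0.073). *Pole*, the catalytic subunit of polymerase epsilon, read 11.26 and 11.33 with EtOH and 11.44 and 11.38 with 4OHT, a difference of 0.11 (SE 0.074). Each kept its treatments apart, in opposite directions and without passing the test. The other 7 differed by -0.11 to 0.10, with 1 above, 2 below and 4 overlapping.

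*Pcna*, the sliding clamp, was the brightest member and read 13.05 and 13.09 with EtOH and 13.21 and 13.11 with 4OHT, a difference of 0.096 (SE 0.078). It was 0.046 without 4OHT replicate 1 and 0.15 without 4OHT replicate 2. A second *Pcna* probe set gave 0.098. *Rfc3*, a subunit of the clamp loader, had the lowest difference of all members, -0.33 (SE 0.149), and the widest standard error. Its EtOH values were 10.68 and 10.48 and its 4OHT values 10.08 and 10.43, so that the treatments were 0.05 apart at the nearest arrays. Without 4OHT replicate 1 or 2 the difference moved to the ends of its range over the alternatives, -0.51 to -0.15. *Rpa3*, the small subunit of the single-strand binding protein, read 10.63 and 10.51 with EtOH and 10.72 and 10.88 with 4OHT, a difference of 0.23 (SE 0.096) that was 0.15 without 4OHT replicate 2. Its second probe set gave 0.19. None of the 9 genes of the clamp, its loader and RPA passed the test. The remaining 6 differed by -0.11 to 0.15.

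Of the 2 genes that finish Okazaki fragments, *Lig1*, DNA ligase I, read 11.05 and 10.94 with EtOH and 11.20 and 11.14 with 4OHT, a difference of 0.18 (SE 0.081). The flap nuclease gene *Fen1* read 10.01 and 9.98 with EtOH and 9.87 and 10.22 with 4OHT. The 4OHT arrays of *Fen1* lay on both sides of the EtOH arrays, and its difference of 0.051 became 0.23 without 4OHT replicate 1 and -0.13 without 4OHT replicate 2.

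The 5 deoxynucleotide genes divided into those above and those below. Ribonucleotide reductase makes deoxynucleotides from ribonucleotides, and its subunit genes *Rrm1* and *Rrm2* differed by 0.048 and 0.27. *Tyms*, thymidylate synthase, read 11.71 and 11.64 with EtOH and 11.34 and 11.38 with 4OHT, a difference of -0.32 (SE 0.074, adjusted p = 0.118 by limma). *Tk1*, the S-phase thymidine kinase, read 10.71 and 10.83 with EtOH and 10.53 and 10.41 with 4OHT, a difference of -0.30 (SE 0.088, adjusted p = 0.180 by limma). Its second probe set gave -0.35 (adjusted p = 0.110 by limma). For both genes the treatments did not overlap. *Dut*, dUTPase, overlapped.

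**Figure D2:**
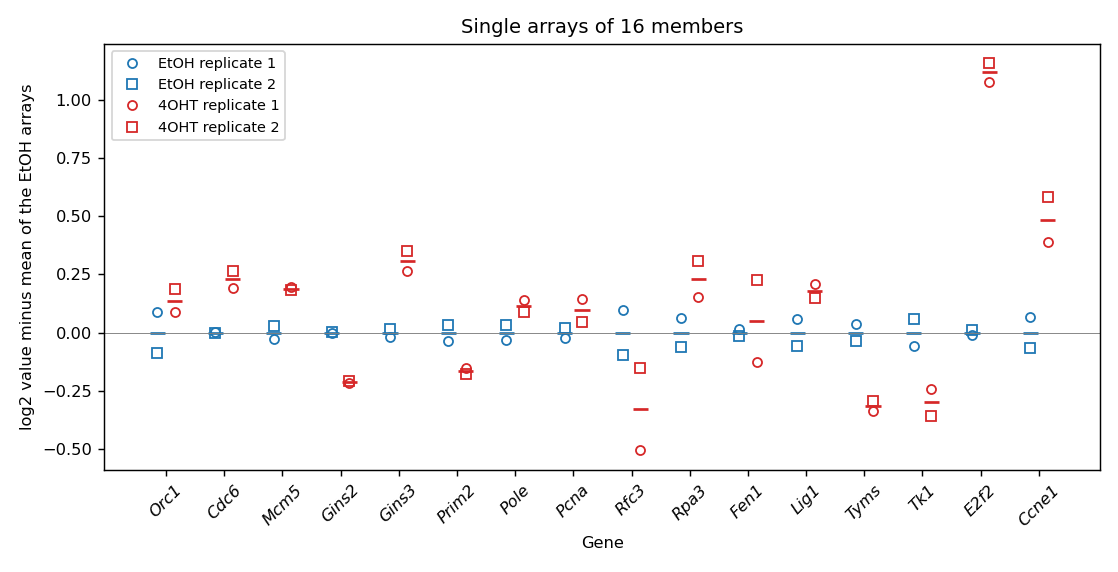
The 4 single arrays of the 16 members described singly, as log2 value minus the mean of the EtOH arrays; short lines mark the mean of each treatment. The 4OHT arrays of *E2f2* lie more than 1 log2 unit above the EtOH arrays, and those of *Fen1* on both sides of them.

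The number of calls depended on the probe sets fitted. When the 21789 probe sets with 1 symbol were fitted alone, the prior carried 8.44 degrees of freedom in place of 2.66, and p-values were adjusted over 21789 probe sets in place of 35556. Then 5 members passed: *E2f2*, *Ccne1* (adjusted p = 0.00571) and *Gins3* (0.0293) were higher, and *Tyms* (0.0255) and *Tk1* (0.0450) lower, by limma. Of all genes, 5.03% were then called higher and 8.72% lower, so that 3 and 2 of 46 members stood against these shares. The sizes were those given above, and the calls of these 4 further genes rest on that fit or on averaging the probe sets of each gene. Of the members with a promoter window, the 23 genes that held them had a median difference of 0.084 and the 15 without them 0.096.

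The other genes of these pathways were read from 3 further lists, of which 74 of 77 genes were measured. Of these, 3 were higher and none lower, all in the list of other E2F, pocket protein and S-phase CDK genes. Of all genes, 1.23% were called higher and 2.99% lower. The median difference was 0.019 over the 74. With probe sets of 1 symbol fitted alone, 9 were higher and 8 lower, from all 3 lists, beside 5.03% and 8.72% of all genes. With averaged probe sets 10 were higher and 10 lower, from all 3 lists, beside 14.4% of all genes called in either direction. *E2f7*, a repressive E2F factor, read 8.92 and 8.89 with EtOH and 9.61 and 9.67 with 4OHT, a difference of 0.74 (SE 0.072, adjusted p = 0.0212 by limma). *Rb1*, the retinoblastoma protein gene, read 10.45 and 10.52 with EtOH and 11.34 and 11.16 with 4OHT, a difference of 0.77 (SE 0.095, adjusted p = 0.0338 by limma). *Rbl2*, the pocket protein p130, read 8.97 and 8.91 with EtOH and 9.50 and 9.54 with 4OHT, a difference of 0.58 (SE 0.073, adjusted p = 0.0346 by limma). All 3 products are known to limit E2F-driven transcription. Their calls were lost without any 1 of the 4 arrays, which left 1 array in a treatment. They were also lost with the replicate number as a block, where 0.15% of all genes were called. Of the atypical E2F pair, *E2f8* lay above by 0.67 and did not pass (adjusted p = 0.0570 by limma). It is named because it stands beside *E2f7* and was chosen after its value was seen. *E2f5*, also chosen after its value was seen, lay below on both 4OHT arrays (-0.45, adjusted p = 0.0587 by limma). With dim probe sets (mean log2 under 6) left out, and with 1-symbol or averaged probe sets, *E2f8* was called higher and *E2f5* lower. *E2f3*, *E2f4* and *E2f6* differed by -0.026, -0.11 and -0.27, with overlapping arrays.

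The remaining lists held no called gene in the fit of all probe sets. They were chosen with earlier results of these data known, so their counts are a description. Each also held genes dimmer than the 5642 bright genes, so that comparison is not matched for brightness. Of 30 other origin and fork genes, 13 lay above on both arrays and 4 below, against 32.1% and 24.5% of all genes. Their median was 0.07, and *Clspn*, the checkpoint adaptor claspin, differed most (0.46, adjusted p = 0.0739 by limma). The 24 other nucleotide synthesis genes had a median of -0.21. Here 16 lay below on both 4OHT arrays, against 24.5% of all genes and 2191 of the 5642 bright genes, and 1 above, *Dck*, the deoxycytidine kinase gene (0.37, adjusted p = 0.136 by limma). The genes below included *Paics* (-0.36), *Ppat* (-0.33), *Atic* (-0.30), *Gart* (-0.16) and *Pfas* (-0.15), enzymes of de novo purine synthesis, and *Cad* (-0.20), *Dhodh* (-0.26), *Umps* (-0.13) and *Ctps* (-0.05), enzymes of pyrimidine synthesis, all named after their values were seen. Of 25 mitosis genes, 21 lay above on both arrays and 1 below, against 32.1% of all genes and 1348 of the 5642 bright genes above. Their median was 0.17, and *Mki67*, the proliferation marker, differed most (0.37, SE 0.178, adjusted p = 0.363 by limma). Its EtOH arrays read 12.54 and 12.08, a gap of 0.46 that exceeded this difference.

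**Figure D3:**
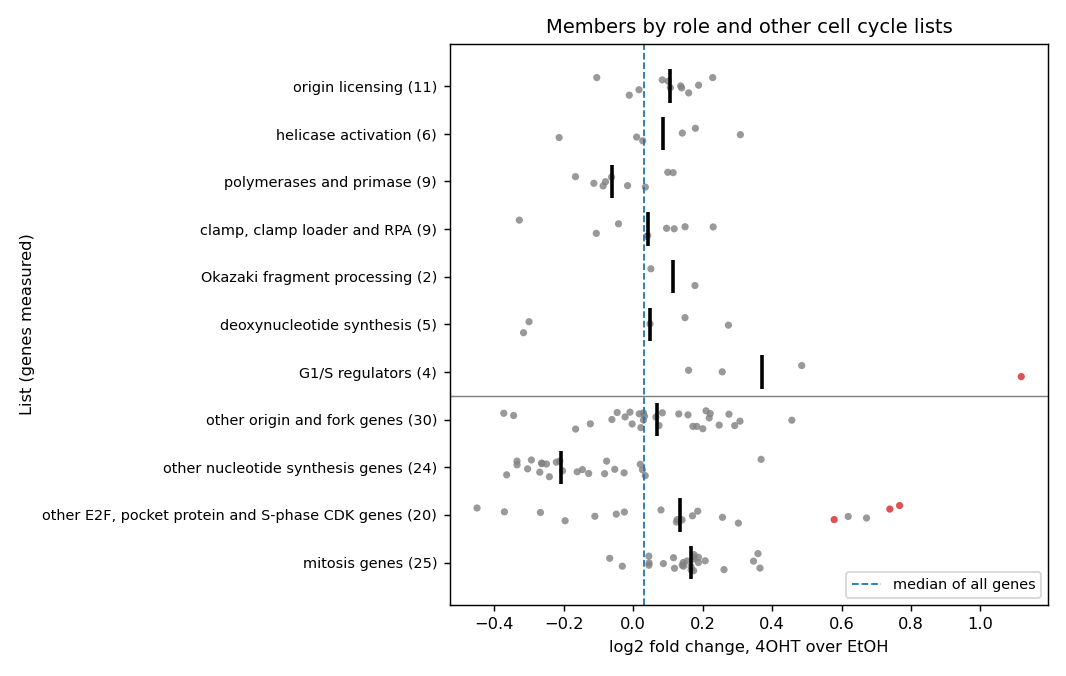
Difference of every measured gene, 4OHT over EtOH on the log2 scale, by role of the members (above the grey line) and in 4 other lists (below it); black bars are medians, the dashed line is the median of all genes and red points passed the test. The nucleotide synthesis list sits to the left at a median of -0.21, and red points are *E2f2*, *E2f7*, *Rb1* and *Rbl2*.

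**Figure D4:**
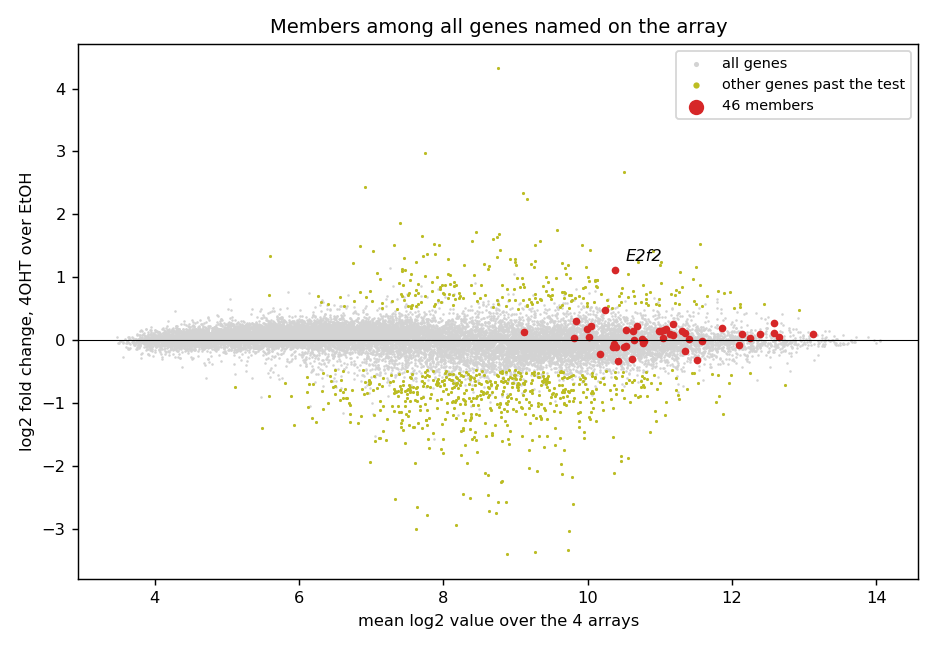
Mean log2 value over the 4 arrays against the difference, 4OHT over EtOH, for all 19938 genes, with genes past the test in olive and the 46 members in red. The members lie at 9.11 to 13.1, and *E2f2* stands apart from the other 45.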

How the data were processed

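RNA of 4 samples, 2 with EtOH and 2 with 4OHT, was hybridised to Affymetrix Mouse Gene ST arrays, starting from 150 ng of total RNA. The authors normalised the intensities with RMA in Affymetrix Expression Console 1.1, and the deposited values are log2 intensities per probe set, between 3.09 and 14.2. No detection calls were used here, and RMA removes a shift shared by most genes. The number of arrays limits the precision: with 2 against 2, an exact permutation test cannot go below p = 0.33, so limma was used.

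Probe sets were named from the platform annotation and symbols updated through RefSeq: 21789 had 1 symbol, 1621 several and 12146 none. All 35556 probe sets were fitted with limma 3.58.1 (lmFit, eBayes) in R 4.3.3, with Benjamini-Hochberg adjustment and a threshold of 0.05; 2 residual degrees of freedom were left. The fit was tested on simulated data. Named singly were called members, the 2 largest absolute differences per role, and the brightest, dimmest, lowest and highest member; of other lists, called genes and the largest difference. The members and lists were chosen with earlier results of these data known. Alternatives changed the block, scaling, filter, probe sets, variance model, threshold and arrays. Sequences come from RefSeq windows on GRCm38.p6. Some genes of the other lists are not reported here.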

Additional observations from a re-analysis of the deposited data

How the results depend on the processing

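The median difference of the members, 0.09, ran from 0.039 to 0.124 over the alternatives, which the thresholds do not touch. It moved by less than the pooled SD of the array medians (0.068) in each. That SD is not far below the median itself, so such a move does not show that the median is stable. The number of members called varied. It was 0 with the replicate number as a block, where 6 members had an unadjusted p under 0.05 and 0.15% of all genes were called. It was 5 when probe sets with 1 symbol were fitted alone (13.7% of all genes called) and 5 when the probe sets of each gene were averaged (14.4%). At adjusted p under 0.01 it was 0 (0.366% of all genes), and at 0.1 it was 2 (7.91%), where *Ccne1* joined *E2f2*. In these settings the calls among the members rose and fell with those among all genes. With dim probe sets left out, 7.78% of genes were called and the number of members stayed at 1. Leaving out each array in turn gave 0 to 1 members, with 3, 5 and 4 members at an unadjusted p under 0.05 without EtOH replicate 1, EtOH replicate 2 and 4OHT replicate 2, and *E2f2* kept without 4OHT replicate 1. Without EtOH replicate 1 or 2, no gene of all 19938 was called by limma. Of the other replication and nucleotide genes, 3 were called in the fit reported, 0 with the block, 0 at 0.01 and 8 at 0.1. When dim probe sets (mean log2 under 6) were left out, 5 were called, beside 7.78% of the 14767 genes left. With 1-symbol probe sets 17 were called (9 higher, 8 lower), and with averaged probe sets 20 (10 higher, 10 lower). The same-numbered arrays did not deviate together (r = -0.134), and the labels state no shared batch. With 2 arrays per treatment, this cannot settle whether the numbers pair the samples. Crossing the pairing, an alternative chosen after seeing the data, called 1 member and 3 others, beside 2.68% of all genes. The prior degrees of freedom were 2.66 with all probe sets and 8.44 with 1-symbol probe sets, and are not given for the other fits. The cause of the changes in the calls was not tested.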
